A study of Mus musculus with 23 samples.

Results

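The genes described here are products of the uterine epithelium that are widely listed as induced by estrogen: the antimicrobial proteins Ltf, Lcn2 and Slpi, the complement component C3, the chaperone Clu, the antibody transporter Pigr, and the membrane mucins Muc1 and Muc4. They were taken by symbol from this list of 8 genes, with no threshold on a measured value, although earlier results of these data were known when the list was made. Of the 18682 features in the count table, 7 matched a listed gene, and all 7 passed the filter on low counts. Muc4 is not analysed here. The 7 genes were followed in 23 uterine horns of female C57BL/6 mice, with 1 bulk RNA sequencing library per horn. The endometrium, the inner lining that holds the epithelium, had been squeezed out of each horn and so parted from the muscle wall by hand.

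The horns fell into 4 groups. The PBS group (5 horns), the HG group (6 horns) and the HG+ORG group (6 horns) came from uteri damaged with 70° ethanol and injected 4 days later with saline, with a hydrogel, or with the hydrogel carrying human endometrial organoids, which are epithelial cultures grown in a gel. The SHAM group (6 horns) served as the reference, and the sources used here do not say what was done to it. Tissue was taken 2 weeks after injection. The age of the mice, the stage of their estrous cycle and the mouse that each horn came from are not stated either. The study text names 21 mice for histology and RNA against 23 horns, so some horns share a mouse, and p-values over horns may be too small for that reason. Replicates are named by their number, which runs from 1 to 23 over the groups.

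Estrogen acts through its receptor, encoded by Esr1, in the epithelium and the stroma of the uterus, where it drives growth and the secretion of a protein-rich, antimicrobial fluid. Progesterone opposes much of this in the epithelium, so in a cycling mouse the secretory genes move with the stage of the cycle. Several of them are also made outside the epithelium, since neutrophils store the Ltf and Lcn2 proteins in their granules and macrophages make C3, and inflammatory signals raise Lcn2, C3 and Slpi in many epithelia.

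The promoters of 4 genes whose levels moved together across horns are shown. Co-movement alone does not single out these 4 genes. Each line gives the 250 bases before the annotated start, 5′ to 3′ on the gene's own strand, from RefSeq on build GRCm38.p6, with motif matches in capitals. The deposited counts were made on another build, GRCm39, so these positions describe the sequences only.
Ltf (chr9:111019042-111019291, plus strand): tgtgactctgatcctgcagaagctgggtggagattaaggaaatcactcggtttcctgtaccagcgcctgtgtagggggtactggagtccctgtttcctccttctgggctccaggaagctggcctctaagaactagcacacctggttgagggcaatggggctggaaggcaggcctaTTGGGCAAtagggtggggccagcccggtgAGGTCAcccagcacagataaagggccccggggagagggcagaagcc
C3 (chr17:57228137-57228386, minus strand): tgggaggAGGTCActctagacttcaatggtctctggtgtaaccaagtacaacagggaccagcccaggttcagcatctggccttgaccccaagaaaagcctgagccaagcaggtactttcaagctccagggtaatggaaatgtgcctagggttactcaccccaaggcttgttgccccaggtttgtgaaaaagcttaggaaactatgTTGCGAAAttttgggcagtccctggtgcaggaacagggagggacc
Lcn2 (chr2:32387740-32387989, minus strand): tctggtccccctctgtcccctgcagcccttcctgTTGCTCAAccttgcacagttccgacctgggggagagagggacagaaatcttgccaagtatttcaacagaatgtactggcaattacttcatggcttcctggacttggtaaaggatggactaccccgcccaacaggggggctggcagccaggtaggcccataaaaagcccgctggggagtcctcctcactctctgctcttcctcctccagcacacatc
Pigr (chr1:130826434-130826683, plus strand): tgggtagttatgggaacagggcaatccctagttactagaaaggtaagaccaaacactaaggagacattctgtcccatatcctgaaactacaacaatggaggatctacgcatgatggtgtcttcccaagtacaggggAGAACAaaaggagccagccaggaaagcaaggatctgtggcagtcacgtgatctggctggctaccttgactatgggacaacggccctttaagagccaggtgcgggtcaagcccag

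In these lines the capitals in Ltf are TTGGGCAA, 75 to 68 bases before the start, and AGGTCA, 46 to 41 bases before it. In C3 they are AGGTCA at 243 to 238 bases and TTGCGAAA at 45 to 38 bases. Lcn2 holds TTGCTCAA at 216 to 209 bases, and Pigr holds AGAACA at 114 to 109 bases. AGGTCA is the core hexamer of estrogen response elements, TTGCNNAA a core of sites for C/EBP factors, and AGAACA the core hexamer that progesterone and glucocorticoid receptors share. All motifs were searched on both strands.

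Of the 7 genes, 6 had a promoter entry, and Clu is named only. Muc1, whose promoter is not shown, held none of the motifs. Its levels also moved with those of Lcn2 and C3 (Spearman rho 0.94 and 0.92). AGGTCA occurred in 2 of the 6 (Ltf and C3), against 14.0% of the 32851 promoters of the same length. TTGCNNAA occurred in 4 of the 6 (Ltf, C3, Lcn2 and Slpi), against 9.56%, and AGAACA in Pigr alone, against 16.1%. The full estrogen response element GGTCANNNTGACC, which 0.0639% of promoters held, and a core of NF-kB sites, which 1.208% held, occurred in 0 of the 6. A match of letters is a description of the window, and no binding was measured.

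Total counts per horn ran from 7920918 to 14902952 with a median of 12701407, so that counting error is small for every member but Slpi. Levels below are log2 CPM, the log2 of counts relative to library size, scaled between libraries by trimmed means of M-values (TMM), with a prior count of 2, which puts a count of 0 at -2.66. They are not divided by gene length, so the levels of different genes are not ranked. A difference between 2 genes is read only for how it varies between horns, and a difference of 0 has no meaning of its own. The library of HG+ORG 18 stood apart: its epithelial identity level (the mean log2 CPM of 16 epithelial genes such as Epcam, Cdh1 and keratins) was 5.79 against 7.78 to 9.87 in the other 22 horns, and Esr1 was 3.82 against 8.07 to 8.89. Its neutrophil level was 6.87 against -1.60 to 3.87, and its macrophage level 8.18 against 0.71 to 5.37. The horns SHAM 5 and SHAM 6 were the most alike pair (chi-square over its degrees of freedom 2.76; SHAM 1 and SHAM 2, second in this order, 16.5) and entered as separate horns. As a check of the tissue label, Epcam stood between 7.13 and 11.43 in every horn, while the level of 10 smooth muscle genes, which mark the muscle wall, ran from -0.55 to 7.18.

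The secretory genes took a large and very uneven part of these libraries. Together the 7 genes made up 5.80% of all counts in SHAM 3 (776911 counts) and 0.0536% in HG 14 (6716 counts), with a median of 1.63%. Ltf alone ran from 0.00288% of counts in HG 14 to 1.49% in PBS 9, and C3 from 0.00563% in HG 14 to 2.43% in SHAM 3. In bulk tissue, fewer epithelial cells and less RNA of a gene per epithelial cell cannot be told apart from these values alone.

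Ltf encodes lactoferrin, an iron-binding antimicrobial protein and the best known secretory product of the estrogen-stimulated mouse uterus. In the SHAM horns it ran from 10.67 through a median of 12.66 to 14.11, and PBS horns 7 to 11 held 13.08, 10.59, 13.88, 10.70 and 13.75. In the HG horns the lowest, median and highest values were 4.70, 10.76 and 13.63, and in the HG+ORG horns 9.23, 13.11 and 14.06. All 4 groups overlapped, and HG 14 lay far below every other horn. In the order SHAM, PBS, HG, HG+ORG the group means were 12.54 ± 1.35 (SD, n = 6), 12.40 ± 1.63 (n = 5), 10.37 ± 3.20 (n = 6) and 12.08 ± 2.197 (n = 6).

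Lcn2 encodes lipocalin 2, which starves bacteria by binding their iron-carrying siderophores. It ran from 10.84 through 12.63 to 14.27 in SHAM, and was 12.03, 6.24, 12.67, 11.63 and 13.41 in PBS horns 7 to 11. In HG its lowest, median and highest values were 4.21, 11.78 and 13.20, and in HG+ORG 6.77, 11.59 and 14.33. Horns far below the rest were PBS 8 at 6.24, HG 14 at 4.21, HG 17 at 6.72 and HG+ORG 22 at 6.77, while no SHAM horn was below 10.84. The groups nevertheless overlapped, with means of 12.48 ± 1.30 (SD, n = 6), 11.20 ± 2.85 (n = 5), 9.96 ± 3.61 (n = 6) and 11.13 ± 2.79 (n = 6) in that order.

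Slpi encodes an inhibitor of leukocyte proteases that also has antimicrobial activity, and it was the only member near the detection limit. It ran from 2 counts in PBS 8 to 4810 counts in HG+ORG 18. Its log2 CPM values were -0.15, 2.93 and 4.87 as lowest, median and highest in SHAM, and 4.70, -1.77, 3.02, 0.61 and 4.63 in PBS horns 7 to 11. HG horns ran from -0.77 through 2.89 to 4.93, and HG+ORG horns from 0.50 through 4.28 to 9.22. HG+ORG 18, at 9.22, was the highest horn by a wide margin, since no other horn of any group exceeded 4.93. The other 5 HG+ORG horns, at 4.40, 2.79, 4.15, 0.50 and 4.83, lay within the range of the other groups.

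C3 encodes the central protein of the complement cascade, which the uterine epithelium secretes into the lumen. It ran from 11.28 through 12.50 to 14.97 in SHAM and was 12.49, 8.62, 13.37, 11.50 and 13.75 in PBS horns 7 to 11. HG horns ran from 5.66 through 11.89 to 13.31, and HG+ORG horns from 7.25 through 12.18 to 14.47. The horns low in Lcn2 were low in C3 as well: PBS 8 at 8.62, HG 14 at 5.66, HG 17 at 7.31 and HG+ORG 22 at 7.25. Group means were 12.68 ± 1.37 (SD, n = 6), 11.94 ± 2.05 (n = 5), 10.52 ± 3.22 (n = 6) and 11.59 ± 2.58 (n = 6) in the same order of groups.

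Clu encodes clusterin, a secreted chaperone that also restrains complement, and it was the steadiest member. It ran from 8.14 through 8.51 to 9.54 in SHAM and was 8.83, 7.96, 8.51, 7.80 and 9.44 in the PBS horns. HG horns ran from 6.84 through 7.90 to 9.19, and HG+ORG horns from 7.44 through 8.95 to 10.46. The highest horn was HG+ORG 18 and the lowest HG 14. Group means were 8.62 ± 0.52 (SD, n = 6), 8.51 ± 0.67 (n = 5), 8.00 ± 0.78 (n = 6) and 8.93 ± 1.00 (n = 6).

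Pigr encodes the polymeric immunoglobulin receptor, which carries dimeric IgA across the epithelium into the lumen. It ran from 7.95 through 10.21 to 12.13 in SHAM and was 10.09, 8.76, 10.59, 8.61 and 11.28 in the PBS horns. HG horns ran from 7.35 through 8.17 to 10.92, and HG+ORG horns from 7.37 through 9.97 to 11.57. The lowest values, 7.35 to 7.37, were those of HG 14, HG 17 and HG+ORG 18, and SHAM 4 (7.95) was nearly as low. Group means were 10.12 ± 1.49 (SD, n = 6), 9.87 ± 1.16 (n = 5), 8.75 ± 1.58 (n = 6) and 9.67 ± 1.69 (n = 6).

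Muc1 encodes a membrane mucin that coats the apical face of the uterine epithelium and is known to limit the attachment of embryos in the mouse. It ran from 8.73 through 9.97 to 11.04 in SHAM and was 9.10, 8.64, 9.89, 9.33 and 10.12 in the PBS horns. HG horns ran from 6.78 through 9.52 to 9.83, and HG+ORG horns from 6.50 through 9.34 to 10.73. HG+ORG 18 was lowest, followed by HG 14 at 6.78, HG 17 at 7.50 and HG+ORG 22 at 7.60. Group means were 9.78 ± 0.86 (SD, n = 6), 9.41 ± 0.60 (n = 5), 8.79 ± 1.31 (n = 6) and 8.97 ± 1.63 (n = 6).

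No secretory gene differed between groups beyond the spread of its horns. In each of 4 comparisons by edgeR's quasi-likelihood test, with Benjamini-Hochberg adjustment over 17708 genes, 0 of the 7 passed an adjusted p of 0.05, as did 0 of all genes tested (0%). At an unadjusted p under 0.05 the members' counts were 0 of 7 in PBS against SHAM (2.17% of all genes), 0 of 7 in HG against PBS (3.37%), 1 of 7 in HG+ORG against PBS (6.09%) and 2 of 7 in HG+ORG against HG (9.81%). No member had groups that did not overlap in any of the 4 comparisons, which held for 0.294%, 0.152%, 0.107% and 0.181% of all genes in the same order. A fitted fold compares mean counts, so for genes with a wide spread its size and even its sign may depart from that of mean log2 CPM. The members also moved together from horn to horn, as given below. Their fold signs within a comparison are therefore not separate observations, and the share of all genes beside them does not allow for this.

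The first comparison asks how damaged, saline-injected endometrium differs from SHAM. In PBS against SHAM, 6 of 7 members had a fitted fold below 0 (46.4% of all genes) and 1 had a fold above 0 (53.6% of all genes). The log2 folds were -0.013 (SE 1.03) for Ltf, -0.66 (SE 1.20) for Lcn2, -0.58 (SE 1.12) for C3 and 0.021 (SE 1.25) for Slpi. They were -0.069 (SE 0.45) for Clu, -0.48 (SE 0.83) for Pigr and -0.48 (SE 0.62) for Muc1. The median was -0.48, against 0.024 over all genes, and every adjusted p by edgeR was 1.00. For Ltf, Lcn2 and C3 the standard error was itself about a 2-fold difference, so a change of that size was not detectable with 5 and 6 horns.

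The hydrogel alone is compared with saline in HG against PBS. All 7 members had a fold below 0 (47% of all genes; 53% had one above 0), with a median of -0.51 against 0.024 over all genes. The log2 folds were -0.96 (SE 1.03) for Ltf, -0.51 (SE 1.18) for Lcn2, -0.27 (SE 1.25) for Slpi and -0.61 (SE 1.10) for C3. They were -0.46 (SE 0.45) for Clu, -0.73 (SE 0.82) for Pigr and -0.34 (SE 0.62) for Muc1. By edgeR the adjusted p-values were 0.991 to 0.993. For Slpi the mean log2 CPM was on the other side, 2.48 in HG and 2.24 in PBS, and its fold was 0.22 without PBS 7. Beside the members, 10 of 10 endometrial stroma genes (median 1.44) and 10 of 10 smooth muscle genes (1.35) had folds above 0. So did 7 of 7 adipocyte genes (3.24), while of the epithelial identity genes 4 were above 0 and 12 below. HG 14, the lowest horn for Ltf, Lcn2 and C3, had the highest stroma level, 7.84. The part of tissue content in the members' folds was not tested. The PBS horns enter this comparison, the preceding one and the next, and the HG horns enter 2 comparisons, so the directions are not independent of each other. The stroma and smooth muscle medians were 1.29 and 2.72 in PBS against SHAM, and -0.78 and -2.90 in HG+ORG against HG.

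The organoids in hydrogel are compared with saline in HG+ORG against PBS. Here 6 of 7 members had a fold above 0 (55.3% of all genes) and 1 below 0 (44.7%), with a median of 0.13 against 0.045 over all genes. The folds were -0.0013 (SE 1.03) for Ltf, 0.36 (SE 1.19) for Lcn2, 0.13 (SE 1.11) for C3, 0.12 (SE 0.83) for Pigr and 0.062 (SE 0.62) for Muc1. For Lcn2, C3, Pigr and Muc1 the mean log2 CPM was on the other side, lower in HG+ORG than in PBS. Clu had a fold of 0.59 (SE 0.45), or 0.13 without HG+ORG 18. Slpi, the member with an unadjusted p under 0.05, had a fold of 3.21 (SE 1.39, adjusted p = 0.795 by edgeR). Without HG+ORG 18 its fold was 0.31 (adjusted p = 1.00 by edgeR).

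The contribution of the organoids beyond the hydrogel is the question of HG+ORG against HG. All 7 members had a fold above 0 (55.7% of all genes; 44.3% had one below 0), with a median of 0.87 against 0.044 over all genes. The folds were 0.96 (SE 0.99) for Ltf, 0.87 (SE 1.14) for Lcn2, 0.74 (SE 1.06) for C3, 0.85 (SE 0.79) for Pigr and 0.40 (SE 0.59) for Muc1, each about as large as its standard error or smaller. Slpi had a fold of 3.48 (SE 1.31, adjusted p = 0.347 by edgeR) and Clu one of 1.04 (SE 0.43, adjusted p = 0.405 by edgeR). Without HG+ORG 18 these were 0.57 for Slpi (adjusted p = 0.885) and 0.57 for Clu (adjusted p = 0.618) by edgeR. Without HG+ORG 21 the folds of Lcn2, C3 and Muc1 were -0.0048, -0.068 and -0.023, so 7 of 7 depended on that horn. The Slpi difference in turn rested on 1 library, in which the neutrophil and macrophage levels were the highest and the epithelial identity level the lowest of the 23 horns.

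A single test of any difference among the 4 groups gave the same picture. For Ltf, Lcn2, C3, Pigr and Muc1 the F statistics lay between 0.381 and 0.777, with adjusted p from 0.918 to 0.955 by edgeR. Clu reached F = 2.01 (adjusted p = 0.702 by edgeR), and Slpi F = 4.58 (adjusted p = 0.308 by edgeR). Without HG+ORG 18 these were 0.890 for Clu and 0.106 for Slpi. At an unadjusted p under 0.05, 1 of 7 members passed this test, against 10.1% of all genes.

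The secretory genes differed widely between horns of the same group. The SD within groups was 2.24 for Ltf, 2.76 for Lcn2, 2.39 for Slpi and 2.42 for C3 on the log2 scale, at percentiles 98.4, 99.7, 99.0 and 99.1 of 12171 genes with a mean of at least 5 CPM, whose median SD was 0.45. Pigr (1.51), Muc1 (1.19) and Clu (0.77) stood at percentiles 92.3, 87.4 and 75.1. Between the lowest and the highest horn, Lcn2 spanned 1112-fold, Ltf 683-fold and C3 635-fold, while Pigr spanned 27.5-fold, Muc1 23.3-fold and Clu 12.3-fold. The share of each member's variance that lay between groups was 11.5 to 19.4%, against a median of 11.6% over those genes. These percentiles describe the libraries, and leaving out HG+ORG 18 gave SDs of 2.18 for Ltf, 2.80 for Lcn2 and 2.46 for C3.

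The members moved together from horn to horn. Over the 23 horns, all 21 pairs of the 7 genes had a Spearman rho above 0, with a median of 0.80, and 20 pairs passed an adjusted p of 0.05 by a two-sided permutation test of 100000 resamples, with adjustment over the 21 pairs. By Pearson's r, 18 passed. With the group means removed 19 pairs passed by rho, and without HG+ORG 18 all 21 did. C3 had the highest median rho with the other members, 0.91, followed by Lcn2 (0.89), Ltf (0.86), Pigr (0.84), Muc1 (0.81), Clu (0.63) and Slpi (0.59).

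Lcn2 and C3 were the most tightly tied pair. Their rho was 0.96 and their r 0.98, each with a permutation p of 1e-05, the smallest that 100000 resamples can give, and r was 0.98 again without PBS 8 and HG 14, the horns farthest from the median of Lcn2. Ltf and Pigr had a rho of 0.96 and an r of 0.89, or an r of 0.96 without HG 14 and HG+ORG 18. Ltf and Lcn2 had a rho of 0.90 and an r of 0.87, or an r of 0.81 without the same pair of horns. Slpi and Clu had a rho of 0.82 and an r of 0.84 (0.82 without PBS 8 and HG+ORG 18). Over all 23 horns these were above the values of either gene with the other 5 members. Without HG+ORG 18 alone that no longer held: the rho of the pair was 0.79, against 0.84 for Clu with Ltf and 0.85 for Clu with Pigr. The weakest pair was Slpi and Muc1, with a rho of 0.37 (adjusted permutation p = 0.081) and an r of 0.15 (adjusted permutation p = 0.498), where HG+ORG 18 held the highest Slpi and the lowest Muc1. Without PBS 8 and HG+ORG 18 the r of this pair was 0.63.

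Within a horn the genes did not keep fixed proportions. The difference between the Lcn2 and C3 levels of a horn had the smallest SD of the 21 pairs, 0.59 over the 23 horns, and still ran from -2.37 in PBS 8 to 0.30 in SHAM 4. The difference between Ltf and Lcn2 ran from -1.57 in SHAM 4 to 4.35 in PBS 8. It was also high in HG 17 (2.66), HG+ORG 22 (2.57) and HG+ORG 20 (2.08). After SHAM 4 it was lowest in HG 16 (-1.10), HG 13 (-0.94), PBS 10 (-0.93), HG+ORG 21 (-0.26), SHAM 3 (-0.16) and HG+ORG 18 (-0.01). SHAM 4, PBS 10, HG 13 and HG 16 had alike profiles although they come from 3 groups: Ltf at 10.67 to 10.84 and Pigr at 7.90 to 8.61, with Lcn2 at 11.62 to 12.24 and C3 at 11.50 to 11.93. PBS 8, HG 17 and HG+ORG 22 had the reverse, Lcn2 at 6.24 to 6.77 with Ltf at 9.34 to 10.59.

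Part of the variation ran with the epithelial identity level, and part did not. This level is not a pure measure of epithelial content, since its genes did not move alike. In the HG horns Cdh1 ran from 9.58 to 10.10 and Krt7 from 6.66 to 10.50. Content and RNA per epithelial cell are therefore not separated by the values below. The epithelial identity level had a rho of 0.94 with Muc1, 0.83 with Lcn2, 0.83 with C3, 0.74 with Ltf and 0.71 with Pigr, all past an adjusted permutation p of 0.05 over 42 relations, but 0.36 with Clu and 0.20 with Slpi, which did not pass. By r the values were 0.87, 0.57, 0.58, 0.60 and 0.65 for the first 5 genes, and 0.91, 0.77, 0.79, 0.71 and 0.63 without SHAM 3 and HG+ORG 18, the horns farthest from the median of the epithelial level. For Clu and Slpi the r was -0.14 and -0.28 over all horns and 0.63 and 0.39 without that pair, and the rho of Clu was 0.55 without HG+ORG 18, so its place apart from the other 5 genes depended on 1 library. Taking each member's level minus the epithelial identity level of its horn left an SD of 0.63 for Muc1, against 1.18 before. For Lcn2 it left 2.38 of 2.73, for C3 2.04 of 2.39 and for Ltf 1.90 of 2.26, and Pigr kept 1.16. For Clu and Slpi the SD was larger than before, 1.18 against 0.80 and 2.68 against 2.37. Relative to the epithelial level, Lcn2 still ranged over 8.19 log2 units, Ltf over 7.98 and C3 over 7.22, from HG 14 as lowest horn to HG+ORG 21, HG 12 and SHAM 3 as highest.

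Because the genes are known as estrogen-induced, the levels of the hormone receptors and of other hormone-responsive genes are given beside them. Esr1, the estrogen receptor, varied little outside HG+ORG 18 and had a rho between -0.20 and -0.01 with Ltf, Lcn2, C3, Pigr and Muc1. With Slpi its rho was -0.67 and its r -0.67, and with Clu -0.64 and -0.63, all past an adjusted permutation p of 0.05. Without SHAM 3 and HG+ORG 18 the r of Esr1 was -0.68 with Ltf, -0.60 with Lcn2, -0.60 with C3, -0.57 with Pigr and -0.48 with Muc1, where over all horns it was 0.14, 0.068, 0.061, 0.26 and 0.45. For these 5 genes the sign of r thus depended on those horns, while Slpi (-0.78) and Clu (-0.72) kept theirs. Pgr, the progesterone receptor and itself an estrogen target, had a rho from -0.48 with Lcn2 to -0.12 with Pigr, and none of the 7 passed by rho. By r, Pgr passed with Slpi (-0.60, adjusted permutation p = 0.019) and Clu (-0.53, adjusted permutation p = 0.039), which were -0.30 and -0.13 without HG+ORG 18 and HG+ORG 21. Without HG+ORG 18 alone its rho was -0.62 with Lcn2 and -0.65 with Muc1.

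A list of 20 other estrogen-induced uterine genes, 19 of them tested (among them Greb1, Padi1, Padi4, Sprr2f and Igf1), had levels of 5.04 to 7.35 over the horns. It had no relation with a member that passed by rho. The values were 0.23 for Ltf, 0.41 for Lcn2, 0.33 for C3 and 0.45 for Muc1. They were 0.11 for Pigr, 0.075 for Slpi and -0.035 for Clu. The adjusted permutation p-values of the 7 ran from 0.117 to 0.879. By r, Lcn2 (0.59), C3 (0.49) and Muc1 (0.54) passed, and without PBS 8 and HG 14 these were 0.29, 0.19 and 0.41. With group means removed the rho was 0.56 with Lcn2 and 0.55 with Muc1, and both passed (adjusted permutation p = 0.019 for each). These relations, and those with the next list, were added after the data had been seen and were adjusted over 14. The label of the genes as estrogen-induced is therefore kept here as their name in the literature, since no hormone was measured and the cycle stage is not given.

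A list of 16 progesterone-induced uterine genes, 13 of them tested (among them Ihh, Fkbp5, Zbtb16 and Hsd11b2), ran opposite to several members. Its rho was -0.65 with Muc1, -0.60 with C3 and -0.59 with Lcn2 (adjusted permutation p = 0.017 for each), against -0.38 with Ltf and -0.31 with Pigr, which did not pass. By r, 6 of the 7 members passed, with -0.65, -0.75 and -0.76 for the first 3 genes. HG 14, with the lowest Lcn2, C3 and Ltf, had the highest level of this list, 7.13, and HG 17, HG+ORG 22, PBS 8 and SHAM 5 followed at 5.83, 5.24, 5.10 and 5.09. HG 14 and HG 17 also had high endometrial stroma levels, 7.84 and 7.37. Their epithelial identity levels, 7.78 and 8.03, were the lowest outside HG+ORG 18. In PBS 8 the stroma level was the lowest of all horns, 0.39, and the epithelial level 8.68. The part of tissue content in these relations was not tested. Without HG 14 and HG 17 none of the relations passed by rho, with a rho of -0.59 for Muc1, -0.47 for C3 and -0.46 for Lcn2, and an r of -0.43, -0.53 and -0.56. Without HG+ORG 18, 4 of the 14 passed.

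The level of 10 cell cycle genes had a rho between -0.52 and -0.34 with the 7 members. Slpi and C3 passed, at -0.52 each and adjusted permutation p = 0.049, with r of -0.31 and -0.44, which did not pass. By r the only one to pass was Pigr, at -0.55 (adjusted permutation p = 0.018), or -0.32 without SHAM 3 and HG+ORG 21. SHAM 3 and HG+ORG 21, the horns highest in Lcn2, C3 and Muc1, had cell cycle levels of 1.04 and 1.73 against 5.21 to 7.80 in the other horns, with the proliferation marker Mki67 at 0.62 and 2.00. Without this pair of horns the r was -0.19 with C3 and -0.47 with Slpi, and the rho -0.37 and -0.55. The smooth muscle level had no relation with a member that passed.

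Since neutrophils carry lactoferrin and lipocalin 2, their markers were read beside the members. Of 14 neutrophil genes, 9 were tested, and Camp, Ngp, Elane and Mpo are not analysed here. The neutrophil level ran from -1.01 to 3.85 in SHAM, -1.60 to 3.42 in PBS, 0.41 to 2.21 in HG and -0.11 to 6.87 in HG+ORG. It had a rho of 0.74 and an r of 0.82 with Slpi (adjusted permutation p = 0.001 for the rho), and an r of 0.63 without PBS 8 and HG+ORG 18. With Clu the r was 0.63 (adjusted permutation p = 0.011), or 0.44 without that pair of horns. The rho with Clu was 0.48, which did not pass. With Ltf and Lcn2 the rho was 0.16 and 0.22 and the r 0.12 and 0.20, and neither passed. In SHAM 3, where Ltf stood at 14.11 and Lcn2 at 14.27, the neutrophil gene S100a8 had a count of 0, which allows up to 3 counts of the 13388570 in that library (counting error only). In HG+ORG 18, where S100a8 reached 10.47 and the macrophage gene Lyz2 13.89, Ltf and Lcn2 stood at 9.23 and 9.24, among the lower values of their group. The values of these 2 horns do not show which cells made the RNA. The part of neutrophils or macrophages in the Ltf, Lcn2, Slpi and Clu values was not tested.

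By edgeR, 0 genes of the members' wider families were called in any of the 4 comparisons. Of 14 listed mucins and mucin assembly genes, 9 were tested. In PBS against SHAM 3 folds were above 0 (53.6% of all genes) and 6 below, with a median of -0.33. In HG+ORG against HG 4 were above 0 (55.7% of all genes) and 5 below, with a median of -0.016. The largest folds were those of Muc13, a membrane mucin, at -1.75 (SE 1.41) and 1.97 (SE 1.34). Of 14 complement genes and regulators, 14 were tested, with medians of 0.10 and 0.58 in the same comparisons. At an unadjusted p under 0.05, 6 of the 14 passed in HG+ORG against HG (9.81% of all genes), among them the receptors C3ar1 (3.24, SE 1.02) and C5ar1 (3.57, SE 1.19), which sit mostly on myeloid cells. In HG+ORG 18, the horn with the highest macrophage level, C3ar1 was 9.08 and C5ar1 8.55, against 2.23 to 4.49 and 0.95 to 4.11 in the other HG+ORG horns.

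Of 18 other epithelial defence genes, 15 were tested, with a median fold of -0.25 in PBS against SHAM and 0.99 in HG+ORG against HG. In the latter, S100a8 (6.28, SE 1.85, adjusted p = 0.270), S100a9 (6.38, SE 1.89, adjusted p = 0.270) and Saa3 (4.60, SE 1.53, adjusted p = 0.281) had the largest folds by edgeR, and S100a8 was 10.47 in HG+ORG 18 against -0.56 to 5.31 in the other 5 horns. Of 14 genes of NF-kB and cytokine input to epithelial defence, 12 had folds above 0 in the same comparison (55.7% of all genes). Their median was 0.77, with Il1b at 5.57 (SE 1.78). The level of this list was 6.36 in HG+ORG 18 and 6.23 in HG+ORG 21, against 2.27 to 5.21 in the other HG+ORG horns. Il1b was 10.48 in HG+ORG 18 and -0.15 to 6.95 in the other HG+ORG horns. The 16 epithelial identity genes had medians of -0.32 in PBS against SHAM, -0.22 in HG against PBS, -0.027 in HG+ORG against PBS and 0.22 in HG+ORG against HG. For comparison, the members' medians in these 4 were -0.48, -0.51, 0.13 and 0.87.

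For each member the 3 genes with the most similar pattern over the 23 horns were taken from 11403 genes of sufficient level with an established symbol, by Spearman rho. For Ltf they were Sftpd (0.99), which encodes a collectin of mucosal defence, Upk3bl (0.97) and Cfi (0.97), a protease that cleaves complement C3b. For Lcn2 they were Tnfsf13os (0.97), whose antisense reads may be shared because the strand setting of the counting is not given, the calcium channel gene Trpv6 (0.97) and Muc13 (0.97). C3 was closest to Clca1 (0.97), Upk3bl (0.96) and Mycn (0.96). Pigr was closest to Gabrp (0.97), Cfi (0.97) and Plet1 (0.96). Muc1 was closest to another mucin, Muc20 (0.98), to the tight junction gene Tjp3 (0.97) and to Hgfac (0.96).

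The 2 members with the loosest ties over all 23 horns had other neighbours. Slpi was closest to Slfn4 (0.91), a gene known from myeloid cells, H2-DMb1 (0.88), which serves the loading of MHC class II, and Creg1 (0.88). Clu was closest to Cdkn1a (0.91), a cell cycle inhibitor, Mif (0.90), a cytokine, and Ctsz (0.89), a lysosomal protease. Cdkn1a is also on the estrogen-induced list, whose level had no such relation with Clu. Without HG+ORG 18 the rho of Slpi with Slfn4 was 0.90 and that of Clu with Cdkn1a was 0.90. These likenesses are descriptions over 23 libraries that share tissue composition.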

How the data were processed

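Endometrium of 23 mouse uterine horns was measured by stranded poly(A) RNA sequencing, single-end. The deposited table holds raw read counts per gene, which the authors made, per the submitters' processing notes, with Trimmomatic 0.39, HISAT2 2.2.1 and featureCounts 2.0.3 on GRCm39 (SAMtools 1.21, FastQC 0.11.9, MultiQC 1.27.1, DESeq2 1.42.1 and R 4.3.1 are listed too). The sources used here give no settings, strand or annotation, and reads from the human organoids cannot be told apart in a mouse alignment. Each of the 18682 features had at least 10 counts in at least 3 libraries.

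From the counts, edgeR 4.0.16 in R 4.3.3 (TMM, filterByExpr, which kept 17708 and removed 974) was fitted to all 4 groups without covariates, with Benjamini-Hochberg adjustment at 0.05. Standard errors were derived by dividing the absolute fold by the root of F. Promoter positions come from another build. The fit was tested on simulated data. Relations used scipy 1.17.1, over 21 pairs and 42 planned relations because Muc4 is not analysed here.

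Genes named are the members, the 3 closest genes by rho to each, up to 4 genes of a list with the largest folds in a comparison, and a few fixed markers. Genes named as examples of a list, and those with values in the closing section, were chosen after their values were seen. The members, lists and rules were chosen with earlier results of these data known. Alternatives were size factors of another kind, DESeq2 1.42.0, limma 3.58.1 (limma-trend), no low-count filter, 2 groups alone, epithelial or smooth muscle levels as a covariate, SHAM 5 and 6 averaged, a prior count of 0.5 for the relations and leaving out each horn.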

Additional observations from a re-analysis of the deposited data

Results flagged for a closer look

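The Lcn2 level of PBS 8 was 6.24 (log2 CPM), while the other 4 PBS horns stood between 11.63 and 13.41. Its gap to the nearest of them was 0.752 of the whole range of the group, above the critical value of Dixon's test for 5 samples. This was 1 of 28 sets of 1 member in 1 group that were looked at, and chance alone marks about 1 in 20 such sets. In the same horn C3 was 8.62, the lowest of the PBS group, Slpi had 2 counts, and Ltf was 10.59, close to the 10.70 of PBS 10. Its epithelial identity level, 8.68, lay within the 8.34 to 9.00 of the other PBS horns, and its neutrophil level was the lowest of all 23 horns, -1.60. Also lowest of the 23 were its macrophage (0.71), endometrial stroma (0.39), smooth muscle (-0.55) and adipocyte (-1.09) levels. The same held for its complement (3.37) and NF-kB input (1.84) levels. Its estrogen-induced list stood at 5.05 and its progesterone-induced list at 5.10. The part of these levels in its Lcn2 value was not tested.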

How the results depend on the processing

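No paired analysis was possible because the mouse that each horn came from is not stated. None of the 7 members was called in any of the 154 counts under other settings. Over all genes, DESeq2 called 1 gene in PBS against SHAM (Ighg1), 162 in HG+ORG against HG and 278 over the 4 groups, where edgeR called 0, and it gave no p-value for Slpi. Leaving out 1 horn gave 0 to 1 called genes in HG+ORG against HG (1, Bnc2, without PBS 10) and 0 to 39 over the 4 groups (39 without HG+ORG 22). Of 868 member folds under other settings, 814 kept their sign, and 41 of the 54 that did not came from leaving out 1 horn. The cause of these changes was not tested. By limma-trend the sign turned for Slpi in PBS against SHAM (-0.63) and HG against PBS (0.24), and in HG+ORG against PBS for Lcn2 (-0.067), C3 (-0.35), Pigr (-0.20) and Muc1 (-0.44). With the epithelial level as covariate, PBS against SHAM gave 0.40 for Ltf, -0.37 for Slpi and 0.024 for C3. With the smooth muscle level it gave 0.16 for Ltf and -0.23 for Slpi, and HG+ORG against PBS gave -0.089 for Pigr. With SHAM 5 and 6 averaged, Slpi in PBS against SHAM was -0.14. Leaving out 1 horn, PBS against SHAM ran from -0.36 to 0.37 for Ltf, -0.47 to 0.52 for Slpi, -1.02 to 0.27 for C3, -0.37 to 0.18 for Clu and -0.94 to 0.12 for Pigr, and HG against PBS from -1.04 to 0.22 for Slpi. HG+ORG against PBS ran from -0.37 to 0.34 for Ltf, -0.51 to 0.87 for Lcn2, -0.67 to 0.57 for C3, -0.34 to 0.58 for Pigr and -0.35 to 0.30 for Muc1. HG+ORG against HG ran from -0.0048 to 1.47 for Lcn2, -0.068 to 1.18 for C3 and -0.023 to 0.63 for Muc1, and for Slpi, without a change of sign, from 0.57 to 4.25.

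Of the 42 relations with receptors and lists, 10 passed by rho, and 16 without HG+ORG 18, an alternative added after the data had been seen. The 14 added relations gave 3, 5 with group means removed (Lcn2 and Muc1 with the estrogen-induced list were gained) and 0 without the 2 farthest horns. Depth limited only Slpi, with 2 counts in PBS 8. The size of each group, 5 or 6 horns, and the spread between horns set the precision of every other value.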

Other observations

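Some horns that were alike in their secretory genes were also alike in some other hormone-responsive genes, across groups. These horns were picked out after their values had been seen, so only their values are given. In SHAM 4, PBS 10, HG 13 and HG 16, where Ltf and Pigr were low relative to Lcn2, the estrogen-induced list stood at 6.91, 6.74, 7.35 and 7.15, among the 5 highest of the 23 horns. Padi1, a peptidylarginine deiminase of the estrogen-stimulated uterus, was 11.52, 9.86, 10.90 and 10.79 there, and above 9 elsewhere only in SHAM 3 (11.53) and HG+ORG 21 (10.54). Ihh, the Indian hedgehog ligand that progesterone induces in the epithelium, was -1.83, 2.72, -0.80 and -0.97 in the same 4 horns, against 8.40 in PBS 8, 8.01 in HG 14, 6.90 in HG 17 and 7.79 in HG+ORG 22. HG 14 had far lower Ltf, 4.70, than those other horns. In PBS 8, HG 14, HG 17 and HG+ORG 22 the estrogen-induced list stood at 5.05, 5.04, 6.33 and 5.73, against a median of 6.23 over all horns. The progesterone-induced list was 1.75, 3.77, 3.09 and 3.03 in SHAM 4, PBS 10, HG 13 and HG 16, against a median of 3.77. The level of the uterine gland list was 2.56, 3.56, 2.60 and 2.58 in SHAM 4, PBS 10, HG 13 and HG 16, and 5.28 to 5.99 in PBS 8, HG 14, HG 17 and HG+ORG 22. Neither level was limited to these horns, since SHAM 3 stood at 2.79, and SHAM 2, SHAM 5, SHAM 6 and HG 12, with Lcn2 at 10.84 or above, at 5.37 to 5.51.

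SHAM 3 and HG+ORG 21, with the highest Lcn2, C3, Pigr and Muc1 of all horns, also had the highest Sprr2f, a cornified envelope gene of the estrogen-stimulated uterus, at 13.43 and 13.73 against 4.33 to 10.89 elsewhere. Members of the Sprr2 family are near-identical and may share reads, so this level is uncertain. Fkbp5, which progesterone and glucocorticoids induce, was 2.53 and 2.80 in this pair and at least 3.83 in every other horn.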
